A study of Mus musculus with 6 samples.

Results

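Atf4 and 9 genes that encode its relatives or dimer partners were examined in tibialis anterior, the fast muscle at the front of the shin: Atf5, Atf3, Cebpg, Cebpb, Cebpa, Ddit3, Jdp2, Atf6 and Atf2. The 10 genes were chosen by name, and each was represented by the array feature annotated with that gene symbol alone. All but Atf6 had such a feature, which left 9 genes of the 14860 with a feature of their own among 16755 features; Atf6 was not analysed here. The muscles came from 6 male mice aged 8 weeks, all fasted for 24 h before harvest. Of these, 3 carried a muscle-specific ATF4 knockout (ATF4 mKO) and 3 were littermate controls. The promoter behind the deletion and the alleles of the controls are not given in the sources used here. Values are log2 expression, an RMA summary in which 1 unit is a doubling of signal, and fold changes are ATF4 mKO minus control on that scale.

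These proteins share a basic leucine zipper (bZIP): a basic stretch grips DNA, and a coiled zipper pairs 2 such proteins. ATF4 is made when phosphorylation of the initiation factor eIF2 slows general translation, as in amino acid shortage or endoplasmic reticulum stress. It pairs with C/EBP proteins on composite C/EBP-ATF response elements (CARE) of amino acid and stress genes. In skeletal muscle ATF4 is known for a part in the loss of muscle mass on fasting, immobilisation and ageing.

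All 8 measured muscle fibre markers, among them Acta1 and Ckm, lay above the median feature level and overlapped between the groups, with log2 fold changes of 0.0008 to 0.12. Overlap was the usual case, since 7.78% of all features were apart in either direction. The array medians ran from 5.84 to 5.91. No batch is given by the labels. Control mouse 3 stood apart in the mean of the 5 measured neutrophil markers, which was 6.12 there and 7.58 to 7.89 in the other 5 mice. S100a8 was 6.8 there against 9.52 to 10.14, and S100a9 was 7.8 against 10.03 to 10.75. Mpo and Csf3r were also lowest in that mouse. Elane did not set it apart, with 5.95 there and 5.9 in control mouse 1.

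Atf4 was the targeted gene and was the member with the largest difference. Its signal was 8.65, 8.76 and 8.76 in control mice 1 to 3 and 6.73, 7.07 and 6.97 in ATF4 mKO mice 1 to 3. The groups were separated by a gap of 1.58, and the spread within each was small beside it. The log2 fold change was -1.80 ± 0.10 (SE, n = 3 per group; limma adjusted p = 0.00268), leaving 28.7% of the control signal with a 95% interval of 24.4% to 33.7%. Without variance moderation the difference was the same and the adjusted p was 0.192, so that the call ended. Whole muscle was measured, so fewer cells of a type and less RNA per cell cannot be told apart, and which exons the feature covers is not known here. The genes next to Atf4 did not pass the test. The 3 measured genes on either side, Tab1, Mgat3, Mief1, Rps19bp1, Grap2 and Fam83f, had log2 fold changes between -0.10 and 0.31.

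**Figure D1:**
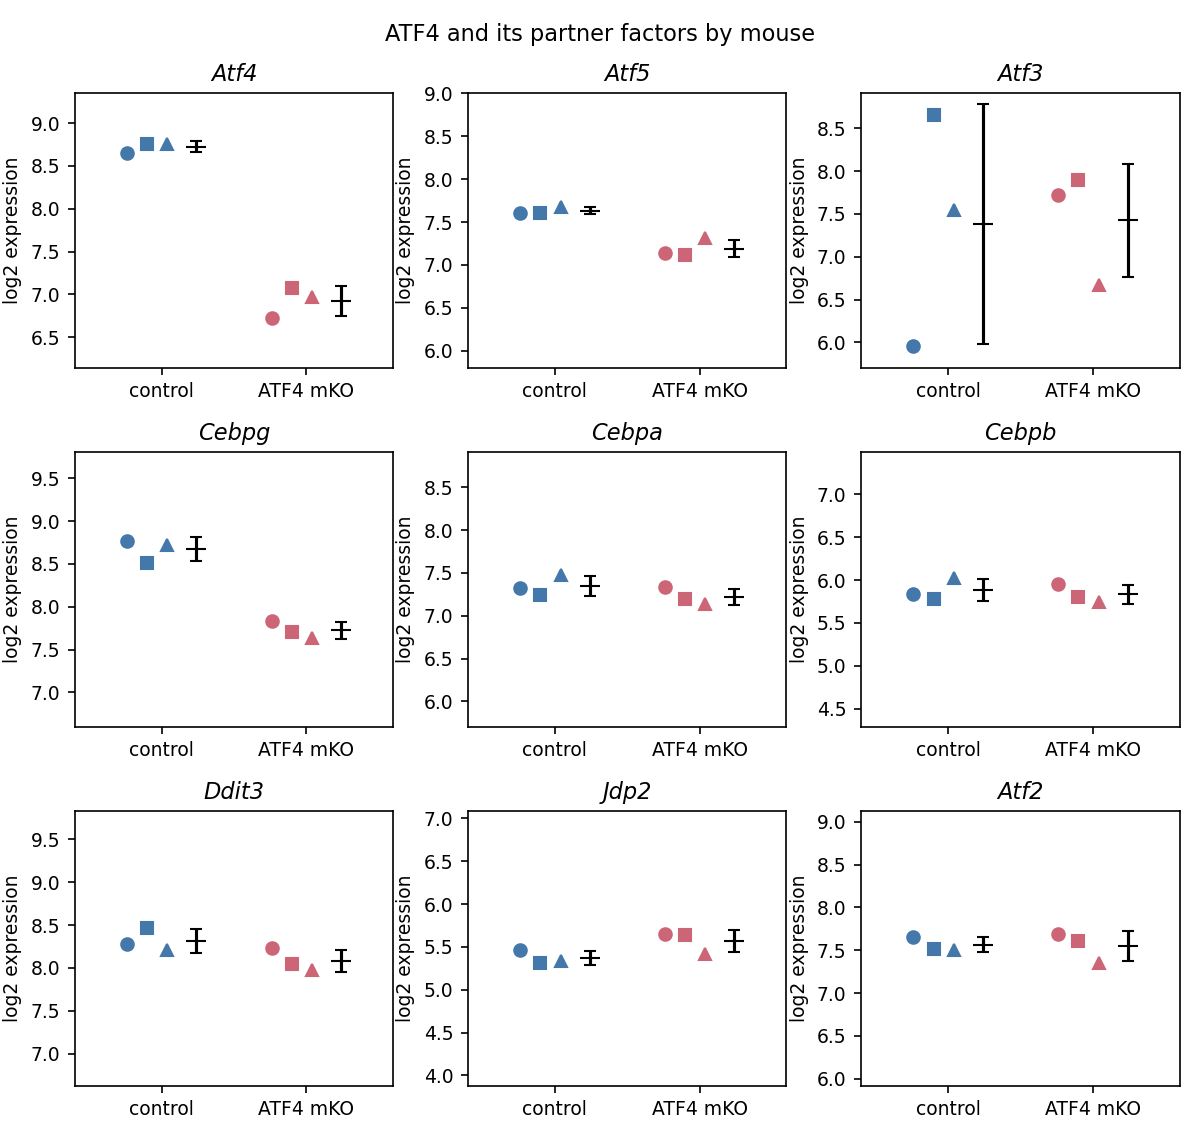
Log2 expression (vertical axis, the same span in every panel) of 9 genes in control (blue) and ATF4 mKO (red) muscle; circles, squares and triangles are mice 1, 2 and 3, and black bars are the mean ± SD of 3 mice. Control and ATF4 mKO mice do not overlap for Atf4, Cebpg and Atf5, and Atf3 spreads from 5.96 to 8.65 among the controls alone.

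Across the 9 genes, 1 passed limma's threshold of an adjusted p of 0.05, Atf4, and it was lower; 0.0119% of all features did so in that direction. At an unadjusted p under 0.05 were 3 genes, Atf4, Cebpg and Atf5, all lower. Over all features the share was 3.09% in either direction and 1.71% in the lower one. The same 3 were the genes whose ATF4 mKO mice all lay below every control, a pattern held by 3.89% of all features. Since the set contains the deleted gene and was assembled with earlier results known, these counts describe it and test nothing. The median log2 fold change of the 9 was -0.13, beside 0.0013 over all features.

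Promoter sequences are shown for the partner genes on which the results turn: those with the next lowest values after Atf4 (Cebpg and Atf5), and those in whose windows a CARE was found (Atf3 and Jdp2). Each runs from 250 bases before to 50 bases after a RefSeq start in assembly GRCm38.p6, 5′ to 3′ on the gene's strand. Capitals mark matches to the CARE core TGATGNAA on either strand; Atf5 and Jdp2 have several annotated starts.
Cebpg (chr7:35056517-35056816, minus strand): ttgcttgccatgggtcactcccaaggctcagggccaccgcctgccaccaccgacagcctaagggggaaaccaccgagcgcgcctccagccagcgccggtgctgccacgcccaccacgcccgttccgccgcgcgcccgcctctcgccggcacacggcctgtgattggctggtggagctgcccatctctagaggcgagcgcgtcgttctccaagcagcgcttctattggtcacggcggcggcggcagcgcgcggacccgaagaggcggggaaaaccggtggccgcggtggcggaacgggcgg
Atf5, first window (chr7:44815609-44815908, minus strand): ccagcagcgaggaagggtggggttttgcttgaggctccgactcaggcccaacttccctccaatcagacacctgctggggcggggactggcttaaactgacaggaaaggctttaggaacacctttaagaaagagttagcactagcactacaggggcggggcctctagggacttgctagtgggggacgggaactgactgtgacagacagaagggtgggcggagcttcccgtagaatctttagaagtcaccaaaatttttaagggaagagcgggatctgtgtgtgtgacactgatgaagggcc
Atf5, other window (chr7:44816609-44816908, minus strand): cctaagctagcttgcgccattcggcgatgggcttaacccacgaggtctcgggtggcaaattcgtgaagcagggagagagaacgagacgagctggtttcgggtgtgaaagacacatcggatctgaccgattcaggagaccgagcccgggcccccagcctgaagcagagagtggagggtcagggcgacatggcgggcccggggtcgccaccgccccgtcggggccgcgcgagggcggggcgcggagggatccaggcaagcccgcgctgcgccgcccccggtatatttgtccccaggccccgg
Atf3 (chr1:191183284-191183583, minus strand): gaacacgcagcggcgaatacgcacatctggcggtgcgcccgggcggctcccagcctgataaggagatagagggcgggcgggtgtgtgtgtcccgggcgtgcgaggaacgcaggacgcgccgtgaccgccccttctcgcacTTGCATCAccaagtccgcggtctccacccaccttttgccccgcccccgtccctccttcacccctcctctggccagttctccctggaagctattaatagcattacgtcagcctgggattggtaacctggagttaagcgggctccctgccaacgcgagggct
Jdp2, middle window (chr12:85599166-85599465, plus strand): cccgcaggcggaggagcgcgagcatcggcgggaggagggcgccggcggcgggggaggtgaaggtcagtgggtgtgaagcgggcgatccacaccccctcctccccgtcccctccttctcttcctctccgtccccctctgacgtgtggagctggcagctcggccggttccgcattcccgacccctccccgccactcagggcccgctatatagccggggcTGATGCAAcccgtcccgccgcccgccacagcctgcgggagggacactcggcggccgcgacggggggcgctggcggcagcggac

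The CARE core was present in 1304 of 32851 mouse promoter windows of this length, or 3.97%. Among the windows of the 9 genes it stood in Atf3, as TTGCATCA, and in 1 of the 3 of Jdp2, as TGATGCAA. The C/EBP site TTGCNNAA, found in 10.8% of all windows, and the full cyclic AMP element TGACGTCA, found in 1.79%, were in no window of the 9. The shorter TGACGT, which is part of that element, was in the same Atf3 and Jdp2 windows and in 7.51% of all. A match is a stretch of letters and not a measured site, and windows without one say nothing of sites elsewhere in the gene.

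Cebpg encodes C/EBP gamma, a short C/EBP protein that lacks an activation domain of its own and forms heterodimers with ATF4. Its signal was 8.77, 8.51 and 8.72 in control mice 1 to 3 and 7.83, 7.71 and 7.63 in ATF4 mKO mice 1 to 3. Every ATF4 mKO mouse was below every control, by at least 0.68. The log2 fold change was -0.94 ± 0.10 (SE, n = 3 per group), or 52.0% of control with a 95% interval of 44.5% to 60.8%. With a limma adjusted p of 0.0588 it did not pass the threshold over all features. It passed when features of low level were left out, with features of 1 symbol only, or with an intensity trend and robust moderation, with adjusted p-values of 0.0116 to 0.0388. Over 16 alternatives the adjusted p ran from 0.0116 to 0.611. The log2 fold change, which several of these settings cannot move, stayed between -1.02 and -0.89.

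Cebpa and Cebpb encode the C/EBP family members that drive fat and liver cell differentiation and the inflammatory response, and both overlapped between the groups. Cebpa is the measured gene next to Cebpg on chromosome 7. Its signal was 7.32, 7.24 and 7.47 in controls and 7.33, 7.19 and 7.14 in ATF4 mKO muscle. ATF4 mKO mouse 1 lay among the controls and the other 2 just below them. For Cebpa the fold change was -0.13 on the log2 scale (95% interval -0.34 to 0.088). Cebpb stood near the median level of all features, at percentile 49.7, with 5.84, 5.78 and 6.03 in controls and 5.95, 5.80 and 5.75 in ATF4 mKO muscle. ATF4 mKO mice 1 and 2 lay within the control range and mouse 3 just below it. The log2 fold change of Cebpb was -0.048, with a 95% interval of 82.9% to 113% of control.

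Within each array, the difference between Cebpg and the mean of Cebpa and Cebpb was 2.20, 2.00 and 1.97 in controls and 1.19, 1.22 and 1.19 in ATF4 mKO mice. The groups did not overlap, with Cebpg lower relative to the mean of both relatives in all 3 ATF4 mKO mice. This difference shifted by -0.86 ± 0.07 (SE, n = 3 per group), with an exact two-sided permutation p of 0.10, the smallest that 3 mice against 3 allow. With the mouse number as a block the shift was again -0.86 and the permutation p was 0.25, the smallest that 3 pairs allow. The shift largely repeats the -0.94 of Cebpg itself, since Cebpa and Cebpb had only -0.13 and -0.048. It is therefore no separate result. Of the other genes around Cebpg, Kctd15, Chst8, Pepd, Slc7a10 and Gpatch1 had log2 fold changes between -0.09 and 0.05. None of these neighbours passed the threshold.

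**Figure D2:**
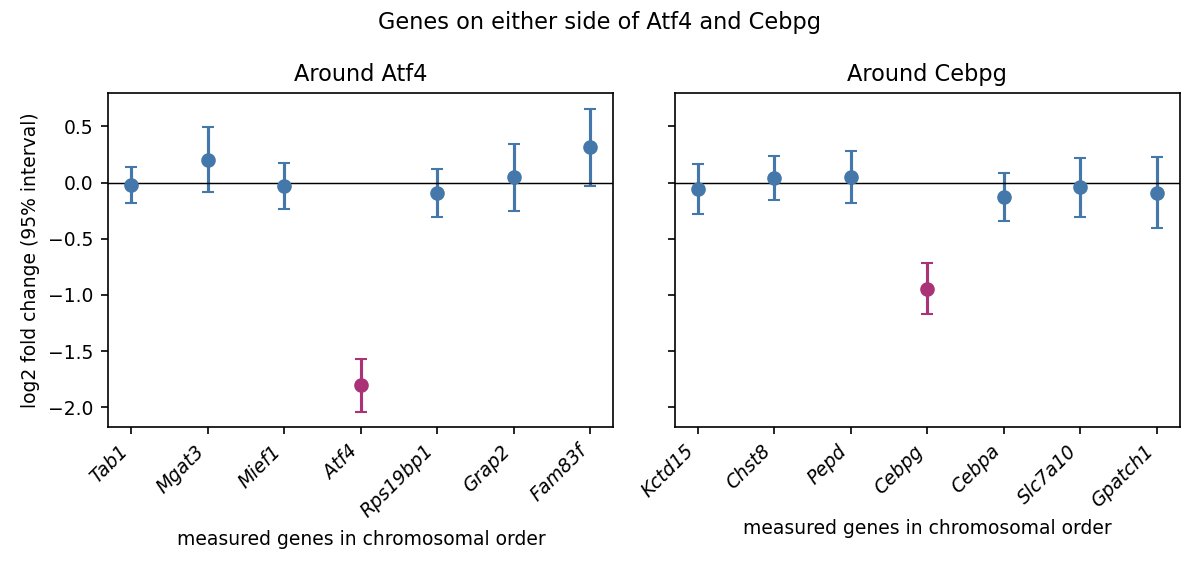
Log2 fold change (points) with limma's 95% interval (bars) for Atf4 and Cebpg (purple) and the 3 measured genes on either side of each in chromosomal order (blue), from 3 ATF4 mKO and 3 control mice. Atf4 at -1.80 and Cebpg at -0.94 lie below all their neighbours, whose intervals include 0.

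Atf5 encodes a close relative of ATF4 whose mRNA is also translated preferentially when eIF2 is phosphorylated. Its signal was 7.61, 7.61 and 7.68 in control mice 1 to 3 and 7.14, 7.12 and 7.31 in ATF4 mKO mice 1 to 3. The groups were separated by 0.30, and the controls lay within 0.07 of each other. The log2 fold change was -0.44 ± 0.08 (SE, n = 3 per group), or 73.7% of control, with a 95% interval of 64.7% to 83.8%. It did not pass over all features (limma adjusted p = 0.753), nor in any of 16 alternatives. The log2 fold change, unmoved by design in several of them, ran from -0.50 to -0.41.

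Ddit3 encodes CHOP, a C/EBP relative that is induced downstream of ATF4 in stressed cells and dimerises with other C/EBP proteins. Its signal was 8.28, 8.47 and 8.21 in controls and 8.23, 8.05 and 7.98 in ATF4 mKO muscle. The groups overlapped at a single pair, ATF4 mKO mouse 1 lying 0.02 above control mouse 3. For Ddit3 the fold change was -0.24 on the log2 scale (95% interval -0.47 to 0.0018). Over 16 alternatives it ran from -0.31 to -0.16 and passed in none. Several of these, such as the filters, cannot move a fold change.

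Jdp2 and Atf3 encode related bZIP repressors that bind cyclic AMP and AP-1 elements, and ATF3 is a gene product induced by many kinds of stress. Jdp2 had the highest fold change of the 9 genes. Its signal was 5.46, 5.31 and 5.33 in controls and 5.65, 5.64 and 5.42 in ATF4 mKO muscle, below the median level of all features. ATF4 mKO mouse 3 lay within the control range and the other 2 above it. For Jdp2 the fold change was 0.20 on the log2 scale (95% interval -0.01 to 0.42), and it did not pass.

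Atf3 varied widely between mice within each group, and the group means were close. Its signal was 5.96, 8.65 and 7.55 in control mice 1 to 3 and 7.72, 7.89 and 6.67 in ATF4 mKO mice 1 to 3. The lowest and the highest of the 6 values were both controls. Between the groups the log2 fold change was 0.042 with a 95% interval of -1.42 to 1.51, so a change of Atf3 to 37.3% or to 284% of control lies within the interval. Leaving out single mice turned its sign, to -0.67 for control mouse 1, to -0.11 for ATF4 mKO mouse 1 and to -0.19 for ATF4 mKO mouse 2; without control mouse 2 it was 0.67. The SD within groups was 1.06, against 0.078 to 0.14 for the other 8 genes and a median of 0.118 over all features. Of all 16755 features, 9 had an SD within groups at least as large, Atf3 included.

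The features nearest to Atf3 over the 6 mice were sought after its values had been seen, by the root mean square (RMS) difference after each feature's control mean was subtracted. A flat profile would differ from Atf3 by 0.868. The 5 nearest were Ankrd1 with 0.195, Xirp1 with 0.344, Cd68 with 0.455, Mt2 with 0.467 and Olfr790 with 0.479. Ankrd1 encodes a stretch- and injury-responsive ankyrin repeat protein of muscle, Xirp1 an actin-binding protein of damaged and remodelling fibres, and Mt2 a metallothionein. Olfr790, an olfactory receptor gene, lay at percentile 39.6 of the feature levels. Ankrd1 was 7.69, 9.89 and 8.94 in control mice 1 to 3 and 9.02, 9.17 and 7.92 in ATF4 mKO mice 1 to 3. Control mouse 1 was thus the lowest and control mouse 2 the highest for Ankrd1, as for Atf3. All 5 features were picked for nearness to Atf3 over these 6 mice, so a like pattern follows from that choice. Cd68, a lysosomal protein of macrophages, was 6.56, 7.84 and 7.23 in controls and 7.76, 7.78 and 6.92 in ATF4 mKO muscle.

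Of the 6 other macrophage markers measured, each on its own, Csf1r ranged over the 6 mice from 5.62 to 5.99, Adgre1 from 5.08 to 5.44, Cd14 from 5.03 to 5.60, Itgam from 4.97 to 5.44, Cd163 from 5.93 to 6.34 and Mrc1 from 6.45 to 6.78. The mean of all 7, Cd68 included, was 5.78 to 6.04 in controls and 6.02 to 6.08 in ATF4 mKO muscle. Fos, an immediate early bZIP gene, ranged from 5.15 to 5.40 over the 6 mice, and Jun from 7.61 to 7.82. Neither thus shared the range of Atf3. Fos lay at percentile 31.7 of the feature levels, and whether its signal stood above background could not be judged. The part of any of these in the spread of Atf3 was not tested.

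**Figure D3:**
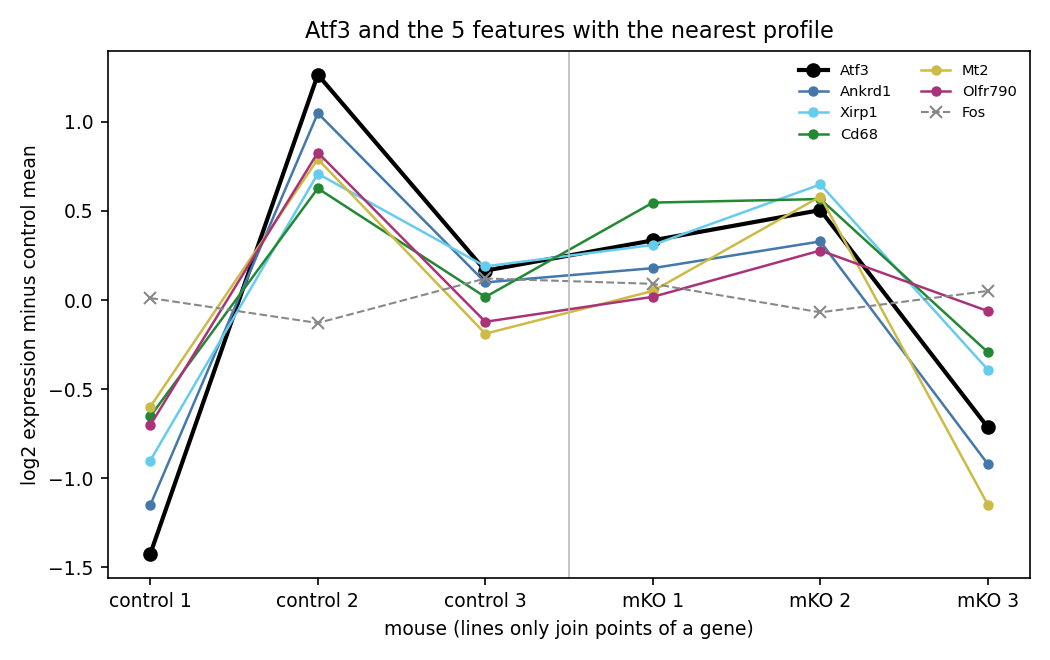
Log2 expression minus the control mean (vertical axis) in each of the 6 mice (horizontal axis) for Atf3 (black), the 5 features with the nearest profile (colours) and Fos (grey, dashed). Control mouse 1 is lowest and control mouse 2 highest for Atf3, while Fos, at percentile 31.7 of the feature levels, stays between 5.15 and 5.40.

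Atf2 encodes a widely expressed bZIP activator that stress kinases phosphorylate and that pairs with JUN. Its signal was 7.66, 7.52 and 7.50 in controls and 7.69, 7.61 and 7.35 in ATF4 mKO muscle. ATF4 mKO mice held both the highest and the lowest value. Atf2 thus had a log2 fold change of -0.013, or 99.1% of control, with a 95% interval of 83.5% to 118%.

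The profile nearest to Cebpg over the 6 mice was that of Yars, the tyrosyl-tRNA synthetase, with an RMS difference of 0.104 after subtraction of control means. Next came Cars, the cysteinyl-tRNA synthetase, with 0.139, Cetn1 with 0.211, Nol12 with 0.240 and Mars1, the methionyl-tRNA synthetase, with 0.250. A flat profile would differ from Cebpg by 0.675. Yars was 7.50, 7.41 and 7.41 in controls and 6.64, 6.62 and 6.54 in ATF4 mKO muscle. Its log2 fold change was -0.84 with a limma adjusted p of 0.0337. Atf4 and Yars were the 2 features that passed the threshold over all features. Because Yars was picked for its nearness to Cebpg over both groups, a like gap and spread follow from that choice.

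Nearest to Atf4 were Olfr918 with 0.549, Cebpg with 0.635, Cars with 0.683, Yars with 0.694 and Celf1, an RNA-binding protein gene, with 0.727, where a flat profile would differ by 1.28. Olfr918, an olfactory receptor gene, lay at percentile 13.4 of the feature levels and did not pass the threshold. All of these distances are given as a description.

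The rest of the bZIP family had no member past the threshold. Of 43 other bZIP genes listed, 37 were measured, and 0 passed limma's threshold; 0 also had an unadjusted p under 0.05, beside 3.09% of all features. The latter count was 4 without control mouse 3, 3 with array weights, 2 when either control mouse 2 or ATF4 mKO mouse 3 was left out, and 0 or 1 under the other alternatives. Their median log2 fold change was 0.035, with 13 values below 0 and 24 above, and 11 of the 37 lay below the median feature level. The smallest p-values belonged to Creb1, Hlf, Dbp, Cebpe, Atf1 and Nrl. Creb1, a cyclic AMP-responsive activator, had -0.24 with a 95% interval of -0.49 to 0.0080, and its second feature had -0.038. Hlf and Dbp, clock-controlled bZIP activators, had 0.19 (-0.026 to 0.41) and 0.20 (-0.031 to 0.44). Cebpe, Atf1 and Nrl had 0.15, 0.18 and 0.13. The groups did not overlap for 1 lower gene, Nfe2l2, and 3 higher genes, Nfe2l1, Nfe2l3 and Nrl, of the 37, where 7.78% of all features were apart in either direction. These groups all but touched: the gap was 0.02 for Nfe2l3 and rounded to 0.0 for Nfe2l2, Nfe2l1 and Nrl.

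**Figure D4:**
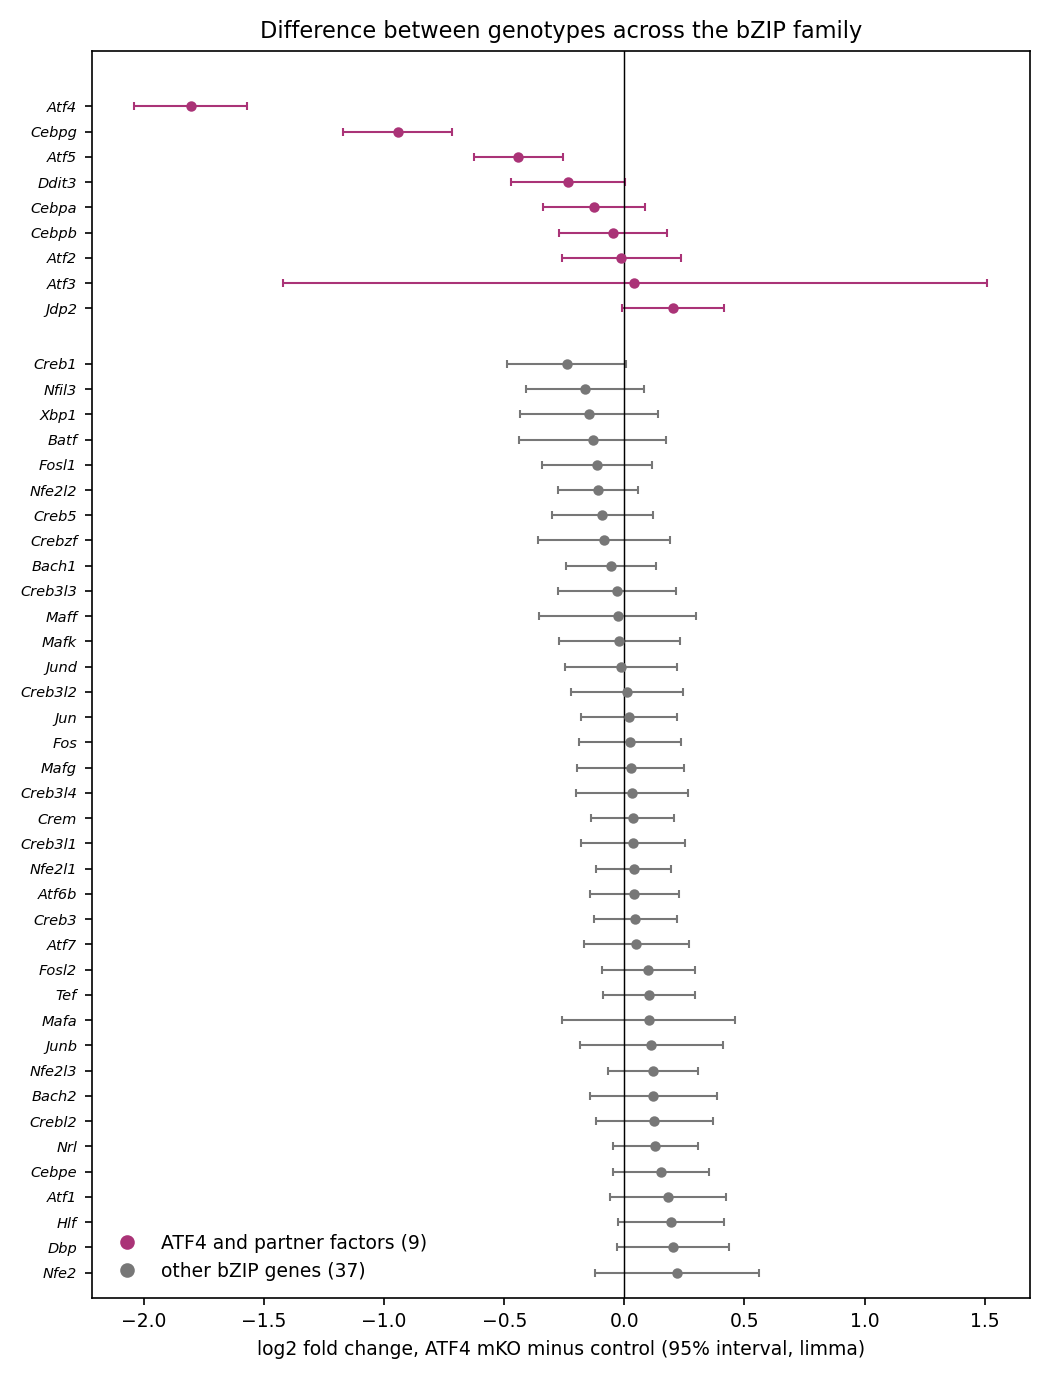
Log2 fold change (horizontal axis, points) with limma's 95% interval (bars) for the 9 genes around ATF4 (purple) and 37 other bZIP genes (grey), from 3 ATF4 mKO and 3 control mice. Atf4, Cebpg and Atf5 have intervals wholly below 0, and the intervals of the grey genes, from -0.24 for Creb1 to 0.22 for Nfe2, all include 0.

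Genes that set ATF4 protein levels or activity did not pass the test. Of 15 listed, 12 were measured and their median log2 fold change was -0.025. The smallest p-values belonged to Ppp1r15b and Ppp1r15a, regulatory subunits of the eIF2 phosphatase, with -0.17 (-0.46 to 0.11) and -0.16 (-0.48 to 0.16). Txlng, which encodes a protein that binds ATF4, followed with 0.047. In each of the 12 the groups overlapped, where 7.78% of all features were apart in either direction.

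Of 23 listed target genes of ATF4 and CHOP, 20 were measured, none passed over all features and 1 had an unadjusted p under 0.05, beside 3.09% of all features. The groups did not overlap for 2 of the 20, Mthfd2 and Aldh18a1, both lower, beside 7.78% of all features in either direction. The 1 gene was Mthfd2, a mitochondrial folate enzyme, with 6.0, 6.13 and 6.08 in controls and 5.74, 5.57 and 5.84 in ATF4 mKO muscle. Its log2 fold change was -0.35 ± 0.09 (SE, n = 3 per group). Chac1, a glutathione-degrading enzyme, followed with -0.34 (-0.72 to 0.039), its groups overlapping, and Aldh18a1, an enzyme of proline synthesis, with -0.13 (-0.30 to 0.050). The median of the 20 was -0.027, and 8 of them lay below the median feature level. The list held no tRNA synthetase gene, so these counts do not cover Yars, Cars and Mars1. Those genes, met as profiles near Cebpg, had log2 fold changes of -0.84, -0.85 and -0.63, and other synthetases were not examined here.

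Adipocytes and myeloid cells express Cebpa and Cebpb, and their markers were read in the same muscles. The mean of 6 adipocyte markers was 6.33 to 6.45 in controls and 6.31 to 6.38 in ATF4 mKO muscle, with a median log2 fold change of -0.064. Among 7 macrophage markers, 6 had a log2 fold change above 0 and the median of the 7 was 0.19. None had an unadjusted p under 0.05 in limma. The 5 neutrophil markers had a median of 0.59, which includes the low control mouse 3. Control mouse 3, with the lowest neutrophil mean of 6.12, held the highest Cebpa, 7.47, and the highest Cebpb, 6.03, of the 6 mice. Without control mouse 3, Cebpa had a log2 fold change of -0.0608 and Cebpb of 0.026. The part of these cell types in the values of Cebpa and Cebpb was not tested.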

How the data were processed

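Muscle RNA of 6 mice, 3 per group, had been measured on 1-colour arrays after SPIA amplification of 50 ng total RNA, per the labels' protocols. The values the authors deposited are log2 expression, 1 for each feature and mouse, from 1.63 to 13.0; the scale was read from the values. Per the submitters' processing notes, the authors used GCOS and RMA with build mm9; versions are not given in the sources used here. Scanner files were not used here, so background calls could not be made, and the number of arrays limits the precision.

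Symbols came from the platform annotation, updated through Entrez identifiers: 14996 of 16755 features had 1 symbol. Where a gene had several, the feature of highest mean level was taken; Creb1 alone among the bZIP genes had more than 1. The mice are separate animals. Groups were compared over all features with limma 3.58.1 (lmFit, eBayes; R 4.3.3), two-sided, with Benjamini-Hochberg adjustment and a threshold of 0.05; the fit was checked on simulated data. The members, lists and tests were chosen with earlier results of these data known. Named were the 10 member genes, the 6 other bZIP genes and up to 3 genes of each further list with the smallest p, the 3 measured neighbours on either side of Atf4 and Cebpg, and the 5 nearest profiles; genes that were apart, the marker genes and the profiles nearest to Atf3 were named after their values were seen. Gene order and promoters come from RefSeq, assembly GRCm38.p6; all 9 measured genes had promoter windows. Alternatives tried were median centring, quantile normalisation, the mouse number as a block, filters on low features, single-symbol features and other variance moderation. Others were array weights, an adjusted p of 0.10 and leaving out each mouse. For single genes the mean over a gene's features was also listed, which repeats the main fit for genes with 1 feature. Filters, the block and variance moderation leave a gene's log2 fold change unchanged.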

Additional observations from a re-analysis of the deposited data

How the results depend on the processing

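The count of changed features, 2, became 4 at an adjusted p under 0.10 and 4 with single-symbol features. There were 7 with an intensity trend and robust moderation, 7 without the lower 50% of features, 5 without the lowest 33.3%, 1 with median centring and 1 without each mouse (range 1 to 1). Without variance moderation limma called 0, with 632 at an unadjusted p under 0.05. Among the 9 genes the count of 1 became 2 with single-symbol features, with an intensity trend, without the lower 50% (7 of the 9 tested), without the lowest 33.3% and at the looser threshold of 0.10, the gene added each time being Cebpg. The count was 0 without variance moderation (3 at an unadjusted p under 0.05) and 1 without each mouse (range 1 to 1). Cebpg, at -0.94 in each, had adjusted p-values of 0.0388, 0.0164, 0.0116 and 0.0161 under the first 4 of these settings. Atf4 was -1.80 without variance moderation, with an adjusted p of 0.192; without each mouse it ran from -1.88 to -1.71. The sign turned for Cebpb with array weights (0.018) and without control mouse 3 (0.026; range without each mouse -0.107 to 0.026), and for Atf2 with array weights (0.035), without ATF4 mKO mouse 3 (0.088) and without control mouse 1 (0.037; range -0.083 to 0.088). For Atf3 it turned without ATF4 mKO mouse 1 (-0.11), ATF4 mKO mouse 2 (-0.19) or control mouse 1 (-0.67; range -0.67 to 0.67). Filters test fewer features; the cause of the other moves was not tested. No other bZIP gene was called under the 16 alternatives. The contrast of Cebpg with Cebpa and Cebpb ran from -0.90 to -0.79 over 11 alternatives, of which Cebpa alone as the reference was chosen after the data were seen. Mouse numbers are shared between groups but not stated to pair animals. Deviations of same-numbered mice correlated at -0.0021, 0.069 and 0.14, and 4 of 6 mice correlated best with their own number. With the replicate number as a block 1 feature was called, Atf4 had -1.80 with an adjusted p of 0.019 and Cebpg -0.94 with 0.33. The number of arrays limits the precision, and signal over background could not be judged from these values.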
